A study of Rattus norvegicus with 16 samples.

Results

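The genes described here are 10 circadian clock genes, Arntl, Clock, Per1, Per2, Per3, Ciart, Bhlhe41, Nr1d1, Nr1d2 and Dbp, found by symbol in the deposited count table of 15580 genes. They were chosen by name as core clock genes and direct clock outputs, and all 10 were present once and passed the filter on low counts, together with 14198 other genes. RNA was taken from the brain of male Wistar rats; the design text says amygdala, whereas the sample labels say brain and whole tissue lysate. Control and HFD rats were left with the dam and then ate standard chow or a high fat diet. ELS and ELS-HFD rats spent 3 h of each day away from the dam, over 16 days from postnatal day 1, and then ate chow or the high fat diet, respectively. All groups were outbred Wistar males with no genetic change named in the labels, all were tested in an elevated plus maze near postnatal day 57, and the diets were split on postnatal day 60. Each group had 4 libraries, 16 in all. The age and the hour of the day at which tissue was taken, the light schedule, and the litter of each rat are not stated in the labels or files used here. Nothing in the labels ties each library to a separate rat, so p-values reflect the spread among libraries, part of which may be technical.

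The molecular clock is a negative feedback loop that turns once a day in most cells, the brain's included. The proteins of Arntl, also called Bmal1, and Clock pair up and switch on genes that carry E-boxes, among them the period genes, Ciart, Bhlhe41, Nr1d1, Nr1d2 and Dbp. Period proteins, with cryptochromes, and the proteins of Ciart and Bhlhe41 then hold that pair back, and the REV-ERB receptors encoded by Nr1d1 and Nr1d2 repress Arntl through ROR elements, so that Arntl transcripts peak in opposite phase to Dbp and the REV-ERB genes. Over the day, the genes that the pair drives are thus high together at hours when Arntl transcripts are low.

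Promoter windows of all 10 genes were read from RefSeq, build GRCr8, where Arntl is listed under the symbol Bmal1. The windows span 250 bases before to 50 bases after the annotated start, and 12 windows belong to the 10 genes. The letters CACGTG, the E-box to which the Arntl and Clock proteins bind, were searched on both strands and were found in the windows of Bhlhe41, Ciart and Nr1d1, against 6.42% of all 33469 windows. The letters CACGTT, a variant called the E-prime box, were found for Nr1d1 and Per2, against 4.83% of windows. The ROR element core TAGGTNA was found for Arntl alone among the 10 genes, against 8.7% of windows, and the D-box TTATGTAA, to which DBP binds, for Per2, against 0.893%. A match describes the letters and is not shown to be a bound site. The windows of Nr1d2, Dbp, Per1, Per3 and Clock held none of these letters, which says only that the letters are not in those windows. The bases before the start are shown for 4 genes, each 5′ to 3′ on the gene's strand with matches in capitals, chosen because their windows hold matches, unlike those of 5 of the 10 genes. Arntl lies on the plus strand at chr1:176766078-176766327 and carries 2 ROR element cores. Per2 lies on the minus strand at chr9:99496994-99497243 with 1 D-box and then 1 E-prime box. Ciart, on the minus strand at chr2:186112247-186112496, carries 3 E-boxes. Bhlhe41, on the minus strand at chr4:180569356-180569605, carries 1 E-box.
Arntl: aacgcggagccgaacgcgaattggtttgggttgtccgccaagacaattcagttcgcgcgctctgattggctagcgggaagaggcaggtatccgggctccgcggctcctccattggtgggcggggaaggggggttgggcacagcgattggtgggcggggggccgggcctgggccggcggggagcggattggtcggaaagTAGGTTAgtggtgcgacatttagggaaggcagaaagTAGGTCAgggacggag
Per2: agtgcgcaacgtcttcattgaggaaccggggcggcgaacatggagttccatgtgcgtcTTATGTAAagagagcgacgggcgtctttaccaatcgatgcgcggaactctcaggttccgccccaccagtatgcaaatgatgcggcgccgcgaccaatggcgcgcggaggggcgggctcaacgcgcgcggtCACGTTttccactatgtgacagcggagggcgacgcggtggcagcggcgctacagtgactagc
Ciart: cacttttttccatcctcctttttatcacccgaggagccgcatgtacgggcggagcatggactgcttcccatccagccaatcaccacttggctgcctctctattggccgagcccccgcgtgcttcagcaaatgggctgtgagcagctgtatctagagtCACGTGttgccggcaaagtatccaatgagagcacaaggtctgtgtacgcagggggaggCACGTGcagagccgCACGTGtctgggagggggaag
Bhlhe41: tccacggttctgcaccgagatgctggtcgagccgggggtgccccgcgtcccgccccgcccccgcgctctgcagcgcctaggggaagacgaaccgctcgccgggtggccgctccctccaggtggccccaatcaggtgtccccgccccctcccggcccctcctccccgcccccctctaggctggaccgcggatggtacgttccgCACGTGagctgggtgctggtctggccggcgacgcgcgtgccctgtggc

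Libraries held 11438086 to 23629824 counts, and the 10 clock genes took 0.0571% to 0.0787% of them. The lowest count of any clock gene was 120, for Ciart in control library 1, and the highest was 5020, for Dbp in HFD library 2. Levels are given as CPM, a gene's count relative to the total of its library after scaling by trimmed means of M values, and log2 CPM carries a prior count of 2. Tissue makeup differed between libraries: summed choroid plexus markers were lowest, at 5.63 CPM, in the ELS-HFD group, where the highest library reached 11320 CPM, and spanned 12.5 to 13358 CPM in the ELS group. The libraries low in choroid plexus markers were ELS 1, ELS 2 and ELS-HFD 1, called the choroid-poor libraries here. Summed myelin and oligodendrocyte markers spanned 5413 to 14532 CPM in the ELS group and 3372 to 7766 CPM in the ELS-HFD group, with the highest list levels in ELS 3 and ELS 4, called the myelin-rich libraries. Control 4 also stood apart, as the lowest control for the striatal list, at a list level of -1.19 against -0.11 to 0.61 in the other controls. Summed hypothalamic and suprachiasmatic peptide markers stayed between 17.4 and 35.5 CPM. All 6 excitatory neuron and amygdala markers were detected, at 2072 to 3684 CPM summed. In whole tissue, fewer cells of a type and less RNA per cell cannot be told apart. The correlation of a clock gene with log2 total count, group means removed, ranged from -0.27 to 0.34 over 16 libraries, with adjusted permutation p-values of 0.898 to 0.926 over 10 genes. The larger log2 folds, the leading correlations and the likeness ranks are given below also without the choroid-poor and without the myelin-rich libraries. In the ELS group, leaving out the choroid-poor libraries keeps only ELS 3 and ELS 4, and leaving out the myelin-rich ones keeps only ELS 1 and ELS 2. Choroid plexus and myelin levels therefore cannot be told apart within ELS by these fits.

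Arntl, the activator that is itself under the clock's control, stood at 40.3, 39.1, 40.2 and 29.7 CPM in the control libraries 1 to 4, 32.7, 39.4, 39.7 and 36.1 CPM in the HFD libraries, 48.3, 45.4, 32.6 and 32.9 CPM in the ELS libraries and 42.2, 34.2, 31.03 and 41.8 CPM in the ELS-HFD libraries. The ELS group divided into libraries 1 and 2, which were the highest of all 16, and libraries 3 and 4, which were near the lowest. Control library 4 was the lowest of all 16, far below the other controls, and the groups overlapped throughout. Its group means ran from HFD to ELS-HFD, control and ELS, 36.97 ± 3.29, 37.3 ± 5.55, 37.3 ± 5.13 and 39.8 ± 8.24 CPM (SD, n = 4).

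Clock, the partner of Arntl, was the least variable of the 10 genes between libraries. It stood at 64.4, 66.7, 67.7 and 70.9 CPM in the control libraries 1 to 4, 64.7, 66.9, 67.3 and 72.6 CPM in the HFD libraries, 67.03, 68.99, 66.2 and 69.9 CPM in the ELS libraries and 71.1, 69.96, 62.6 and 75.6 CPM in the ELS-HFD libraries. The highest library was 1.21 times the lowest, and its biological coefficient of variation of 0.0683 stood at percentile 5.06 of the 14208 genes tested. Its 4 group means lay within 2.37 CPM of each other, and the SD within a group was 1.72 to 5.40 CPM.

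Per1, a period gene that neuronal activity and glucocorticoids also induce, varied most between libraries. It stood at 46.7, 50.8, 62.1 and 86.1 CPM in the control libraries 1 to 4, 41.1, 69.02, 68.5 and 82.4 CPM in the HFD libraries, 43.98, 56.1, 75.2 and 66.7 CPM in the ELS libraries and 59.9, 76.8, 40.7 and 69.3 CPM in the ELS-HFD libraries. The highest library, control 4, was 2.11 times the lowest, ELS-HFD 3, and high and low libraries occurred in every group. Its coefficient of variation of 0.241 stood at percentile 85.7 of all genes tested.

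Per2, a period gene whose loss impairs daily rhythms in mice, stood at 47.7, 36.97, 44.5 and 57.6 CPM in the control libraries 1 to 4, 36.3, 49.3, 51.4 and 67.3 CPM in the HFD libraries, 41.1, 50.7, 55.1 and 49.1 CPM in the ELS libraries and 49.3, 59.8, 48.4 and 67.5 CPM in the ELS-HFD libraries. The highest libraries were ELS-HFD 4 and HFD 4 and the lowest were HFD 1 and control 2, so that the HFD group alone spanned nearly the whole range. Per3, the period gene that mice can lack with little loss of rhythm, stood at 25.7, 21.5, 23.5 and 30 CPM in the control libraries 1 to 4, 26.4, 26.02, 23.8 and 27 CPM in the HFD libraries, 21.3, 25.04, 32.1 and 29.1 CPM in the ELS libraries and 28.8, 26.8, 29.1 and 28.6 CPM in the ELS-HFD libraries. The lowest and the highest of its 16 values, 21.3 and 32.1 CPM, were both ELS libraries.

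Ciart, also called Chrono, is a repressor of the Arntl and Clock pair. Its raw counts were 120, 187, 140 and 138 in the control libraries 1 to 4, 159, 306, 132 and 162 in the HFD libraries, 125, 168, 227 and 189 in the ELS libraries and 187, 165, 146 and 174 in the ELS-HFD libraries. After scaling these were 8.36, 8.50, 11.5 and 11.3 CPM in the control libraries 1 to 4, 13.7, 12.9, 8.68 and 11.02 CPM in the HFD libraries, 9.80, 13.9, 14.6 and 13.7 CPM in the ELS libraries and 12.8, 11.1, 10.99 and 11.3 CPM in the ELS-HFD libraries. ELS libraries 2, 3 and 4 were above every control, while ELS library 1 lay among the controls. Counting error alone was 9.13% at the lowest count of Ciart, the largest among the 10 genes.

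Bhlhe41, also called Dec2, competes for E-boxes. It stood at 28.3, 27.96, 34.9 and 23.4 CPM in the control libraries 1 to 4, 23.9, 31.6, 26.6 and 30.2 CPM in the HFD libraries, 27.7, 34.95, 42.3 and 36.01 CPM in the ELS libraries and 28.98, 29.9, 31.6 and 31.8 CPM in the ELS-HFD libraries. ELS libraries 2, 3 and 4 were again above every control, ELS 2 only narrowly, and ELS 1 was within the control range. The 4 ELS-HFD libraries were close together between control libraries 1 and 3.

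Nr1d1, whose product REV-ERBα represses Arntl, stood at 92.5, 82.5, 110 and 110 CPM in the control libraries 1 to 4, 87.7, 91.9, 87.5 and 102 CPM in the HFD libraries, 101, 102, 94.5 and 98.5 CPM in the ELS libraries and 117.8, 102, 83.9 and 104 CPM in the ELS-HFD libraries. Its annotated locus overlaps that of Thra on the other strand, on GRCr8, and the use of strand in counting is not stated, so reads of these genes cannot be told apart with certainty. Thra counts were 6.63 to 9.71 times those of Nr1d1, and the correlation of the pair with group means removed was 0.51 over 16 libraries.

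Nr1d2, the gene of REV-ERBβ, stood at 85.98, 77.8, 89.95 and 89.5 CPM in the control libraries 1 to 4, 83.7, 97.6, 78.7 and 89.03 CPM in the HFD libraries, 75.7, 83.04, 103 and 88.4 CPM in the ELS libraries and 94.01, 89.3, 92.4 and 104 CPM in the ELS-HFD libraries. Dbp, a transcription factor that carries the E-box rhythm on to D-box genes, stood at 161, 152, 216 and 211 CPM in the control libraries 1 to 4, 188, 211, 145 and 200 CPM in the HFD libraries, 170, 183, 259 and 202 CPM in the ELS libraries and 197, 188, 219 and 212 CPM in the ELS-HFD libraries. ELS 3 was the highest library for Dbp and nearly so for Nr1d2, ELS-HFD 4 was highest for Nr1d2, and control 2, HFD 3 and ELS 1 were low for both. With the groups ordered by mean, neighbouring group means differed by no more than 1 SD of the wider-spread group for any of the 10 genes. Groups farther apart in that order could differ by more. Among these, control and ELS stood at 9.92 ± 1.73 and 12.98 ± 2.16 CPM for Ciart and at 28.6 ± 4.72 and 35.2 ± 5.99 CPM for Bhlhe41.

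**Figure D1:**
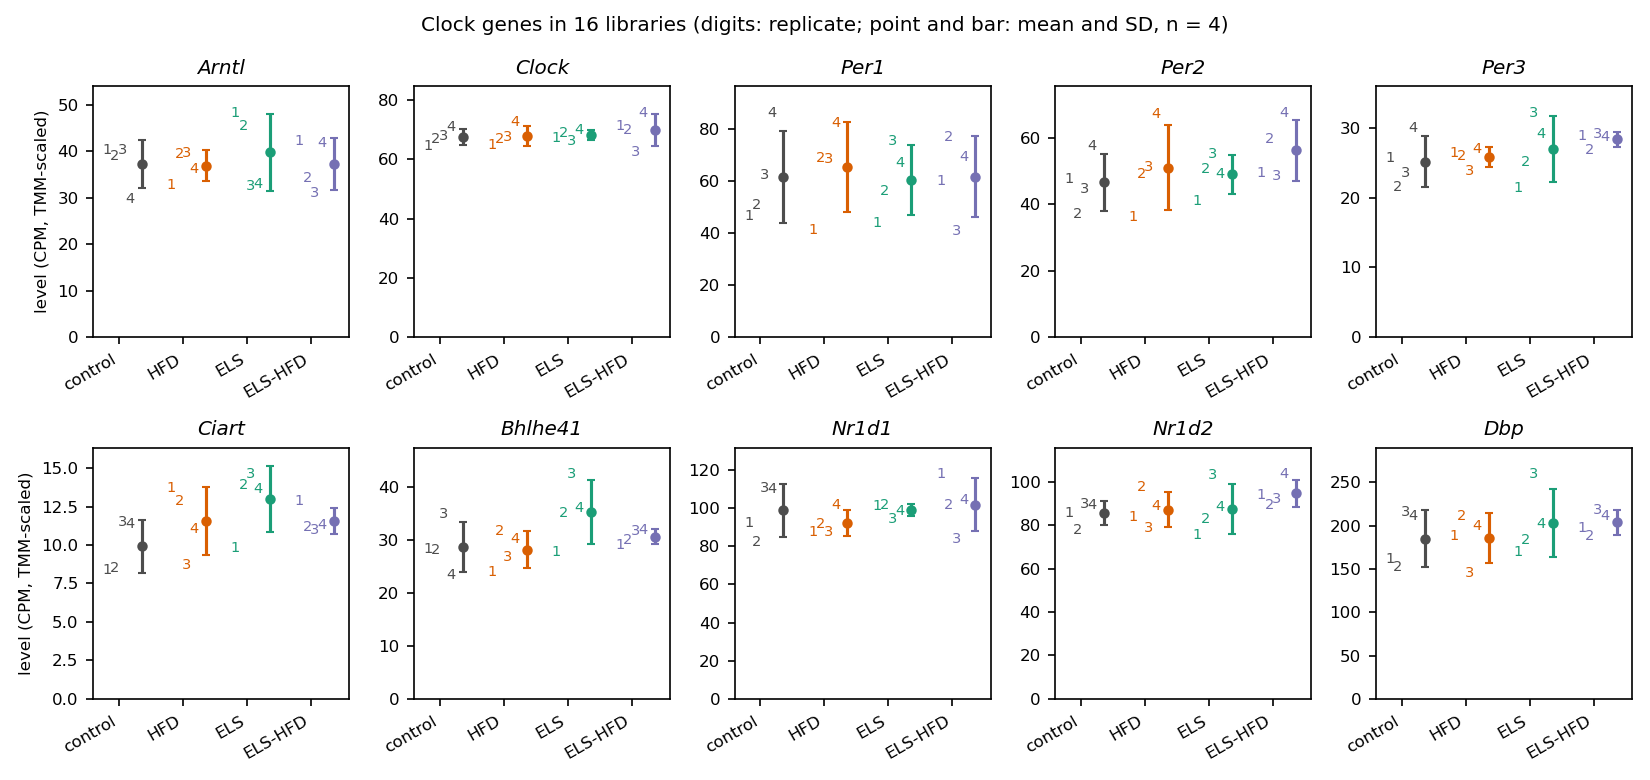
Level of each clock gene in CPM (vertical axis, from 0) by group (horizontal axis). Digits are the replicate numbers of single libraries, and the point with its bar is the mean and SD of 4 libraries. Groups overlap in every panel; Per1 spans 40.7 to 86.1 CPM and Clock only 62.6 to 75.6 CPM.

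The first question was whether diet, separation or both moved the clock genes. None of the 10 genes was called in any of 8 contrasts by edgeR's quasi-likelihood test at an adjusted p of 0.05 over 14208 genes, and DESeq2 called none either. Nor did the 2 groups separate completely for any clock gene in a pairwise contrast. Against this, edgeR called 0% of all genes in HFD against control, ELS against control, ELS-HFD against control and ELS-HFD against HFD, for separation averaged over diet and for the interaction. It called 0.00704% (1 gene, lower) in ELS-HFD against ELS and for diet averaged over rearing. Complete separation of the groups was seen for 1.79% of all genes in HFD against control, 1.61% in ELS against control, 1.98% in ELS-HFD against control, 2.53% in ELS-HFD against ELS and 1.53% in ELS-HFD against HFD. In the authors' deposited table, every adjusted p of the 10 genes was 1, and after the authors' correction of the p-values the lowest was 0.349, for Ciart in ELS against control.

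In HFD against control, 7 of 10 clock genes had a log2 fold above 0, as did 45.7% of all genes, with a median log2 fold of 0.02 over the 10 and -0.01 over all. The log2 fold ± SE of the smallest p was 0.23 ± 0.16 for Ciart (edgeR unadjusted p = 0.176, adjusted p = 1.00). Arntl was at -0.01 ± 0.14, Clock at 0.01 ± 0.06, Per1 at 0.09 ± 0.24, Per2 at 0.13 ± 0.17, Per3 at 0.04 ± 0.12, Bhlhe41 at -0.02 ± 0.13, Nr1d1 at -0.10 ± 0.10, Nr1d2 at 0.03 ± 0.09 and Dbp at 0.01 ± 0.15. No clock gene had an unadjusted p under 0.05, against 1.84% of all genes. The 95% intervals of the 10 log2 folds lay within -0.42 and 0.61, both bounds set by Per1, which is 0.746-fold to 1.52-fold. For Clock the interval was -0.12 to 0.14.

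In ELS against control, both repressors of the E-box arm outside the period family stood highest. Ciart was at 12.98 ± 2.16 CPM in ELS and 9.92 ± 1.73 CPM in control (SD, n = 4), a log2 fold of 0.39 ± 0.16 (edgeR unadjusted p = 0.0255, adjusted p = 0.999). Bhlhe41 was at 35.2 ± 5.99 and 28.6 ± 4.72 CPM, a log2 fold of 0.30 ± 0.13 (edgeR unadjusted p = 0.0343, adjusted p = 0.999). Neither passed the threshold; 2 of 10 clock genes had an unadjusted p under 0.05, against 3.32% of all genes. The authors' deposited table gives log2 folds of 0.405 and 0.306 for this pair of genes. Without ELS 3 and ELS 4, the libraries high in myelin markers, the log2 folds were 0.28 for Ciart (edgeR unadjusted p = 0.185) and 0.14 for Bhlhe41 (unadjusted p = 0.342). Without ELS 1, ELS 2 and ELS-HFD 1, low in choroid plexus markers, they were 0.52 (edgeR unadjusted p = 0.0122, adjusted p = 0.266) and 0.45 (unadjusted p = 0.00673, adjusted p = 0.216). In ELS, each of these fits rested only on the libraries that the other left out. Of the other genes, Arntl was at 0.09 ± 0.14, Clock at 0.01 ± 0.06, Per1 at -0.02 ± 0.24, Per2 at 0.07 ± 0.17, Per3 at 0.10 ± 0.12, Nr1d1 at 0.00 ± 0.10, Nr1d2 at 0.03 ± 0.09 and Dbp at 0.14 ± 0.15. Thus 9 of 10 log2 folds were above 0, against 49.1% of all genes, with a median of 0.08 over the 10 and 0.00 over all. The clock genes did not vary independently between libraries. With group means removed, 27 of 28 pairs of the driven genes had a positive correlation, with a median of 0.46. Counts of clock genes above 0, or under an unadjusted p of 0.05, are therefore not 10 independent observations in any contrast. A joint shift of the 10 genes was not tested. The log2 folds of Arntl and Clock were smaller than their SE, so their sign relative to the driven genes cannot be read from this contrast.

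In ELS-HFD against control, 9 of 10 log2 folds were above 0, against 46.9% of all genes, with medians of 0.12 and -0.01. Per2 was at 0.27 ± 0.17 (edgeR unadjusted p = 0.132, adjusted p = 1.00), from 46.7 ± 8.56 CPM in control to 56.2 ± 9.09 CPM in ELS-HFD. Ciart was at 0.23 ± 0.16, Per3 at 0.17 ± 0.12, Nr1d2 at 0.15 ± 0.09 and Dbp at 0.14 ± 0.15, while Arntl was at 0.00 ± 0.14. Leaving out the choroid-poor libraries put Per2 at 0.33 (edgeR unadjusted p = 0.0996), and leaving out the myelin-rich ones, which reach this contrast only through the shared spread and scaling, at 0.28 (unadjusted p = 0.138). Bhlhe41 was at 0.09 ± 0.13, Clock at 0.05 ± 0.06, Nr1d1 at 0.05 ± 0.10 and Per1 at 0.01 ± 0.24. No clock gene had an unadjusted p under 0.05, against 4.43% of all genes. These 3 contrasts share the control libraries and are not independent of each other.

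Within separated rats, ELS-HFD against ELS gave 7 of 10 log2 folds above 0 (49.4% of all genes). The smallest p was that of Bhlhe41, at -0.21 ± 0.13 (edgeR unadjusted p = 0.132, adjusted p = 0.932). Per2 was at 0.20 ± 0.17, Ciart at -0.17 ± 0.16, Nr1d2 at 0.11 ± 0.09, Arntl at -0.09 ± 0.14, Per3 at 0.07 ± 0.12, Clock at 0.04 ± 0.06, Nr1d1 at 0.04 ± 0.10, Per1 at 0.03 ± 0.24 and Dbp at 0.00 ± 0.15. No clock gene had an unadjusted p under 0.05, against 6.21% of all genes. Within rats on the high fat diet, ELS-HFD against HFD gave 9 of 10 above 0 (51.3% of all genes), with the smallest p for Nr1d1 at 0.14 ± 0.10 (edgeR unadjusted p = 0.181, adjusted p = 1.00), and none unadjusted under 0.05, against 1.77% of all genes. Per2 was at 0.14 ± 0.17, Per3 at 0.14 ± 0.12, Dbp at 0.13 ± 0.15, Nr1d2 at 0.12 ± 0.09, Bhlhe41 at 0.12 ± 0.13, Per1 at -0.08 ± 0.24, Clock at 0.04 ± 0.06, Arntl at 0.01 ± 0.14 and Ciart at 0.00 ± 0.16. Both contrasts share the ELS-HFD libraries.

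Averaged over diet, separation gave 9 of 10 log2 folds above 0, against 50.9% of all genes. Bhlhe41 was at 0.21 ± 0.09 (edgeR unadjusted p = 0.0362, adjusted p = 1.00), Ciart at 0.20 ± 0.11, Dbp at 0.13 ± 0.10, Per3 at 0.12 ± 0.08 and Per2 at 0.11 ± 0.12. The rest were smaller, with Nr1d2 at 0.08 ± 0.06, Nr1d1 at 0.07 ± 0.07, Arntl at 0.05 ± 0.10, Per1 at -0.05 ± 0.17 and Clock at 0.03 ± 0.04. 1 of 10 clock genes was under an unadjusted p of 0.05, against 2.60% of all genes. In the absence of the myelin-rich libraries the log2 fold for separation was 0.13 for Bhlhe41 (edgeR unadjusted p = 0.179), 0.14 for Ciart, 0.04 for Dbp, 0.02 for Per3 and 0.01 for Nr1d2. In the absence of the choroid-poor libraries it was 0.30 for Bhlhe41 (edgeR unadjusted p = 0.00768, adjusted p = 0.325), 0.23 for Ciart, 0.23 for Dbp, 0.21 for Per3 (unadjusted p = 0.0178, adjusted p = 0.363) and 0.14 for Nr1d2. The values of Dbp, Per3 and Nr1d2 were thus near 0 without the former and larger without the latter. The ELS group then consisted of choroid-poor libraries alone or of myelin-rich libraries alone, so the part of either cannot be told apart. Averaged over rearing, diet gave 7 of 10 above 0, against 46.8% of all genes. The smallest p was that of Per2 at 0.17 ± 0.12 (edgeR unadjusted p = 0.189, adjusted p = 0.968), and Bhlhe41 stood at -0.12 ± 0.09. When the myelin-rich libraries were left out, Per2 was at 0.21, Bhlhe41 at -0.03 and Nr1d2 at 0.14 (edgeR unadjusted p = 0.0404, adjusted p = 0.984), and when the choroid-poor ones were, the values were 0.15, -0.18 and 0.01. With all libraries, Nr1d2 was at 0.07 ± 0.06, Per1 at 0.06 ± 0.17, Per3 at 0.06 ± 0.08, Arntl at -0.05 ± 0.10, Ciart at 0.03 ± 0.11, Nr1d1 at -0.03 ± 0.07, Clock at 0.02 ± 0.04 and Dbp at 0.01 ± 0.10. None was under 0.05 unadjusted, against 5.54% of all genes. The interaction had 5 of 10 above 0, against 50.7% of all genes; Ciart, at -0.39 ± 0.22 (edgeR unadjusted p = 0.0994, adjusted p = 1.00), had the smallest p, and none was under 0.05 unadjusted, against 2.23% of all genes. For Ciart without the choroid-poor libraries the interaction was -0.57 (edgeR unadjusted p = 0.0333, adjusted p = 0.983), and without the myelin-rich ones it was -0.27 (unadjusted p = 0.305). Bhlhe41 was at -0.18 ± 0.18, Nr1d1 at 0.14 ± 0.15, Nr1d2 at 0.09 ± 0.13, Arntl at -0.08 ± 0.20, Per2 at 0.07 ± 0.24, Per1 at -0.06 ± 0.34, Per3 at 0.03 ± 0.16, Clock at 0.03 ± 0.08 and Dbp at -0.01 ± 0.21. Over the averaged contrasts, the 95% intervals of the 10 log2 folds lay within -0.31 and 0.42 for diet and within -0.41 and 0.44 for separation. Those bounds are the widest over the 10 genes, and each gene has its own: for Clock the interval was -0.07 to 0.11 for diet and -0.06 to 0.12 for separation.

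**Figure D2:**
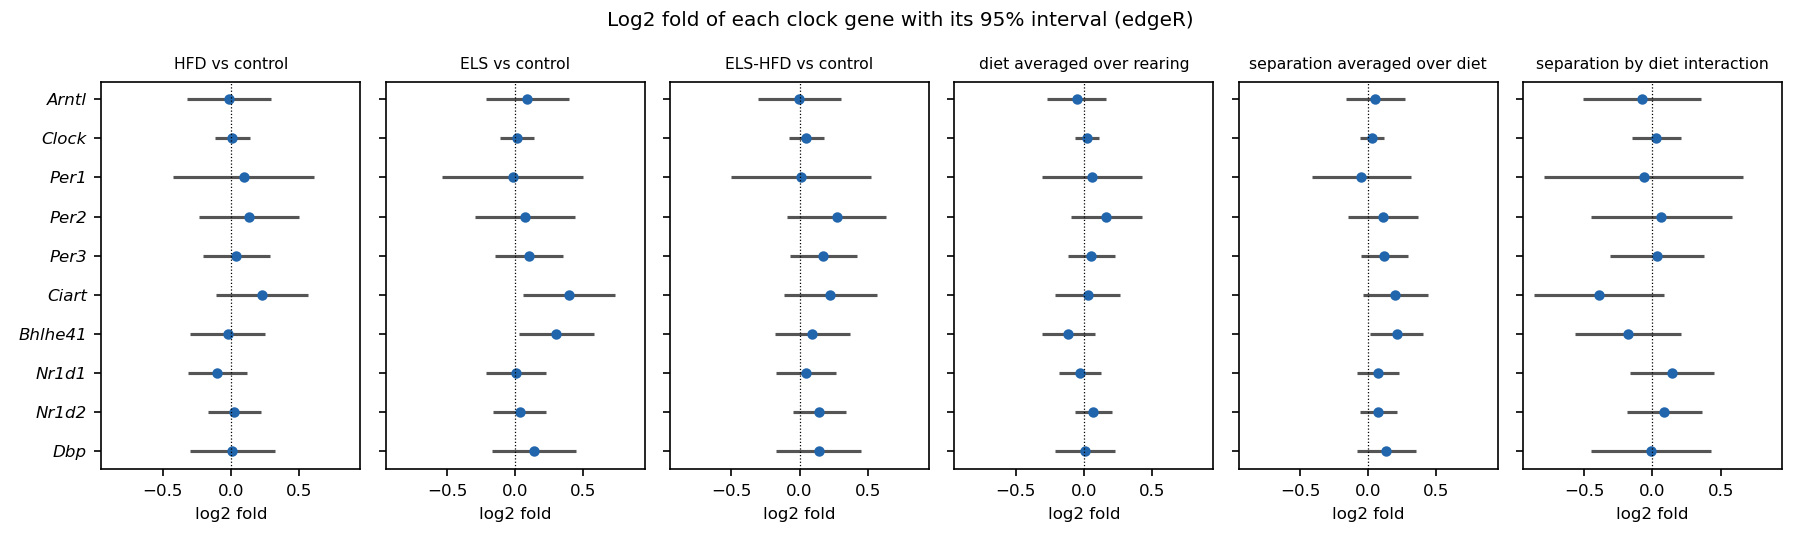
Log2 fold (horizontal axis) of each clock gene (vertical axis) in 6 contrasts, as a point with its 95% interval from edgeR. Intervals span 0 except for Ciart and Bhlhe41 in ELS against control and Bhlhe41 in separation averaged over diet, none of which passed adjustment over all genes.

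The wider clock list held 42 other genes, the cryptochromes, ROR receptors, D-box factors, kinases, ubiquitin ligases and further partners, of which 38 were tested. edgeR called 0 of 38 in every contrast and DESeq2 also called 0; at an unadjusted p under 0.05 there were 1, 0, 3, 3, 1, 1, 0 and 1 genes in the 8 contrasts, in the order of the contrasts above with diet before separation. The shares of all tested genes were 1.84%, 3.32%, 4.43%, 6.21%, 1.77%, 5.54%, 2.60% and 2.23%. The smallest unadjusted p-values by edgeR in HFD against control were those of Usp2, a deubiquitinase under clock control, at a log2 fold of 0.36 ± 0.16, Hlf, a D-box factor, at 0.16 ± 0.12, and Timeless at 0.25 ± 0.21. In ELS against control they were those of Cry1, a cryptochrome, at 0.26 ± 0.14, Usp2 at 0.28 ± 0.16 and Hlf at 0.18 ± 0.13. In ELS-HFD against control they were those of Rora, a receptor that activates Arntl through the ROR element, at -0.65 ± 0.23, Hlf at 0.30 ± 0.12, and Zfhx3, a transcription factor that sets the pace of the mouse clock, at -0.62 ± 0.27. ELS-HFD against ELS gave Rora at -0.69 ± 0.23 (edgeR unadjusted p = 0.00848, adjusted p = 0.678), Zfhx3 at -0.73 ± 0.28 and Cry1 at -0.33 ± 0.14. In ELS-HFD against HFD the order was Rora at -0.66 ± 0.23, Zfhx3 at -0.55 ± 0.27 and Prkaa1, a subunit of the AMP-activated kinase, at -0.15 ± 0.08. Rora and Zfhx3 also led for diet averaged over rearing, at -0.34 ± 0.16 and -0.40 ± 0.19. For separation averaged over diet the genes were Rora at -0.31 ± 0.16, Hlf at 0.16 ± 0.09 and Csnk1a1 at -0.05 ± 0.04, and for the interaction Rora at -0.70 ± 0.32, Tipin at 0.71 ± 0.35 and Zfhx3 at -0.66 ± 0.39. Rora was low in this tissue, at 0.844 to 2.47 CPM over 16 libraries, and 3 of its 4 ELS-HFD values lay below the lowest of the other 12. In ELS-HFD against ELS, the Rora log2 fold was -0.70 without the choroid-poor libraries (edgeR unadjusted p = 0.0460) and -0.78 without the myelin-rich ones (unadjusted p = 0.0121), and Zfhx3 was at -0.61 and -0.66. In ELS-HFD against control, Rora was at -0.73 and -0.65, and Zfhx3 at -0.43 and -0.62.

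The second question was whether the activator and repressor arms moved against each other from library to library. For this, each gene's group mean was subtracted from its log2 CPM, Pearson's r was computed for the 45 pairs of the 10 genes over 16 libraries, and p-values came from 100000 shuffles within groups, adjusted over the 45 pairs. The pair held tightest was Nr1d2 with Dbp, at r = 0.87 and rho = 0.86 (adjusted permutation p = 0.00112). Leaving out ELS 1 and ELS 3, farthest from the median of Nr1d2, gave r = 0.80. The second pair called was Per1 with Per2, at r = 0.83 and rho = 0.84 (adjusted permutation p = 0.0208), and r = 0.76 without HFD 1 and ELS-HFD 3. With the letter N or B of the label identifiers as a term, r was 0.87 and 0.82. Without ELS 1, ELS 2 and ELS-HFD 1, r was 0.83 for Nr1d2 with Dbp and 0.84 for Per1 with Per2, both with an adjusted permutation p = 0.0963, and no pair was called. Without ELS 3 and ELS 4, r was 0.79 and 0.83 and both stayed called. Per1 with Per2 was not called when control 4, HFD 1, HFD 3, HFD 4 or ELS 1 was left out, with r between 0.76 and 0.89 over the fits that leave out 1 library.

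Among the 8 genes that the Arntl and Clock pair drives, 27 of 28 pairs had a positive r, with a median of 0.46, while r was above 0 in 50.8% of 142070 comparisons of a clock gene with any tested gene. Unadjusted, 13 of the 45 pairs had a permutation p under 0.05, against 13.0% of those comparisons. The 7 pairs that lay outside the central 95% of the r of both of their genes with all other tested genes were all positive. They were Nr1d2 with Dbp, Per3, Ciart and Bhlhe41, Dbp with Per3 and Ciart, and Per1 with Per2. Their r was 0.75 for Per3 with Nr1d2, 0.72 for Per3 with Dbp, 0.77 for Ciart with Dbp, 0.64 for Ciart with Nr1d2 and 0.66 for Bhlhe41 with Nr1d2, none called after adjustment over 45 pairs (adjusted permutation p of 0.0672 to 0.122). In the same order, r was 0.57, 0.63, 0.83, 0.57 and 0.49 without the choroid-poor libraries. It was 0.57, 0.59, 0.76, 0.61 and 0.48 without the myelin-rich ones, so most of these were lower in both fits. Over all 16 libraries, Nr1d1 did not go with its relative Nr1d2 in this way, at r = 0.25, nor with Bhlhe41, at -0.03, the only negative r among the 28. This depended on the libraries: Nr1d1 with Nr1d2 was at 0.50 without the choroid-poor and 0.49 without the myelin-rich ones. Nr1d1 with Bhlhe41 was then at 0.14 and 0.07. In the same fits Per3 with Bhlhe41 was at -0.29 and -0.17, and Per2 with Ciart at -0.06 and -0.01.

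**Figure D3:**
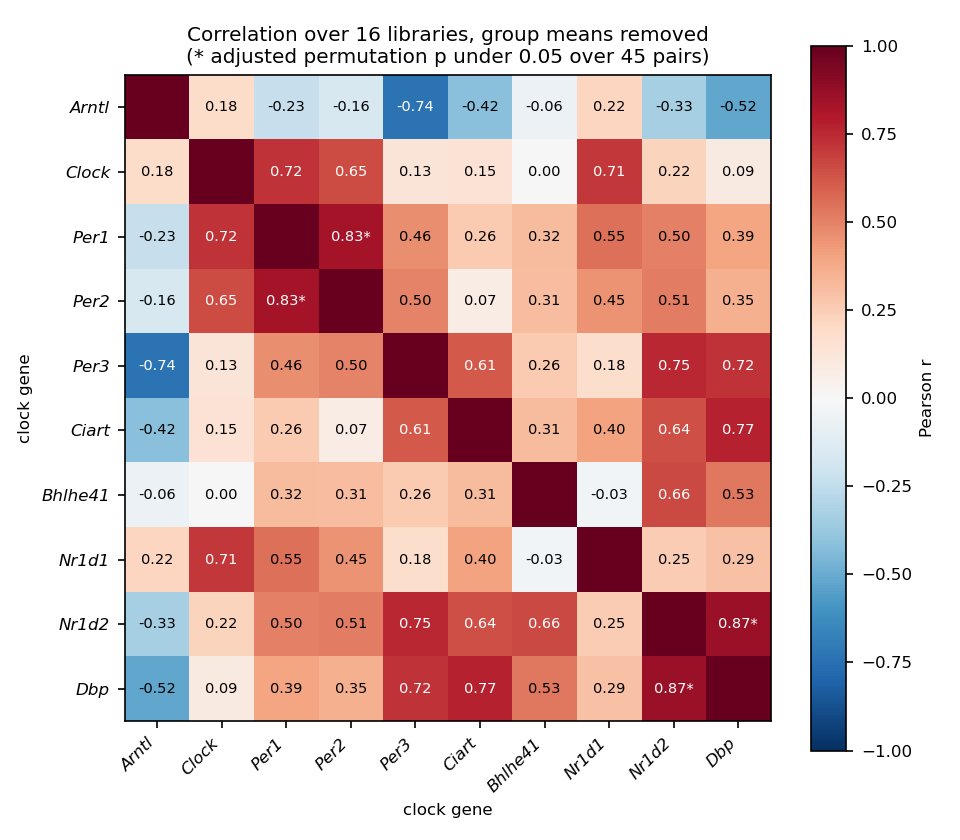
Pearson r of each pair of clock genes (both axes) over 16 libraries after subtracting group means, by colour and number. The block of Per3, Ciart, Nr1d2 and Dbp is positive, from 0.61 to 0.87, and the Arntl row is mostly negative; stars mark Nr1d2 with Dbp and Per1 with Per2.

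The activators did not move as one. Arntl had a negative r with 7 of 8 driven genes, at a median of -0.28, and the most negative were Per3 at -0.74 (adjusted permutation p = 0.0927), Dbp at -0.52 (adjusted permutation p = 0.191) and Ciart at -0.42. Nr1d1 was the exception, at 0.22. Clock had a positive r with 8 of 8 driven genes, at a median of 0.18, with Per1 at 0.72 (adjusted permutation p = 0.0672), Nr1d1 at 0.71 (adjusted permutation p = 0.0988) and Per2 at 0.65 (adjusted permutation p = 0.0927). The smallest was Bhlhe41 at 0.002, which was -0.03 without the choroid-poor libraries. Of all tested genes, 50.1% had an r above 0 with Clock and 52.4% with Arntl. The driven genes were correlated with each other, so these counts are not 8 independent observations. The r of Arntl with Clock was 0.18 (adjusted permutation p = 0.634). None of these pairs was called over the 16 libraries with group means removed. Clock with Per1 was called, at r = 0.83 (adjusted permutation p = 0.0403), without ELS 3 and ELS 4, and also without ELS 3 or ELS-HFD 2 alone, with the myelin or the striatal list level as a term, and with group means kept. Leaving out the choroid-poor libraries gave it an r of 0.79 (adjusted permutation p = 0.0963). Clock had r of 0.72 with Per2 and 0.75 with Nr1d1 without those 3 libraries, and 0.72 with both without ELS 3 and ELS 4. Arntl with Per3 was called without ELS-HFD 2, with the replicate number as a block and with group means kept, and Clock with Nr1d1 under the last 2 of these. Without control 4 and ELS 3, farthest from the median of Arntl, r was -0.58 with Per3 and -0.32 with Dbp. For Arntl with Per3, r was -0.59 without ELS 1, ELS 2 and ELS-HFD 1 and -0.53 without ELS 3 and ELS 4. Ciart, at -0.41 and -0.28, and Dbp, at -0.30 and -0.33, also stayed negative with Arntl in these fits. Other signs depended on the libraries. With the choroid-poor ones left out, r of Arntl was 0.59 with Bhlhe41, 0.14 with Nr1d2, 0.09 with Per2 and 0.05 with Per1. With the myelin-rich ones left out, these were 0.41, 0.11, -0.03 and 0.03. Nr1d1 was at -0.005 and 0.17. Library by library, Arntl and the median of the 8 driven genes deviated from their group means in opposite directions in 10 of 16 libraries, and Clock and that median in the same direction in 11 of 16. These numbers were 7 and 9 of 13 without the choroid-poor libraries and 8 and 11 of 14 without the myelin-rich ones. All 8 driven genes were below their group mean in control 2. In control 4, HFD 4, ELS 3, ELS 4 and ELS-HFD 4, 7 of 8 were above, and in the first 4 of those Arntl was below its mean. In HFD 4 the Arntl deviation was only -0.03, and in ELS-HFD 4 it was 0.18. ELS 3 and ELS 4 are the myelin-rich libraries. These counts of libraries were not tested.

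**Figure D4:**
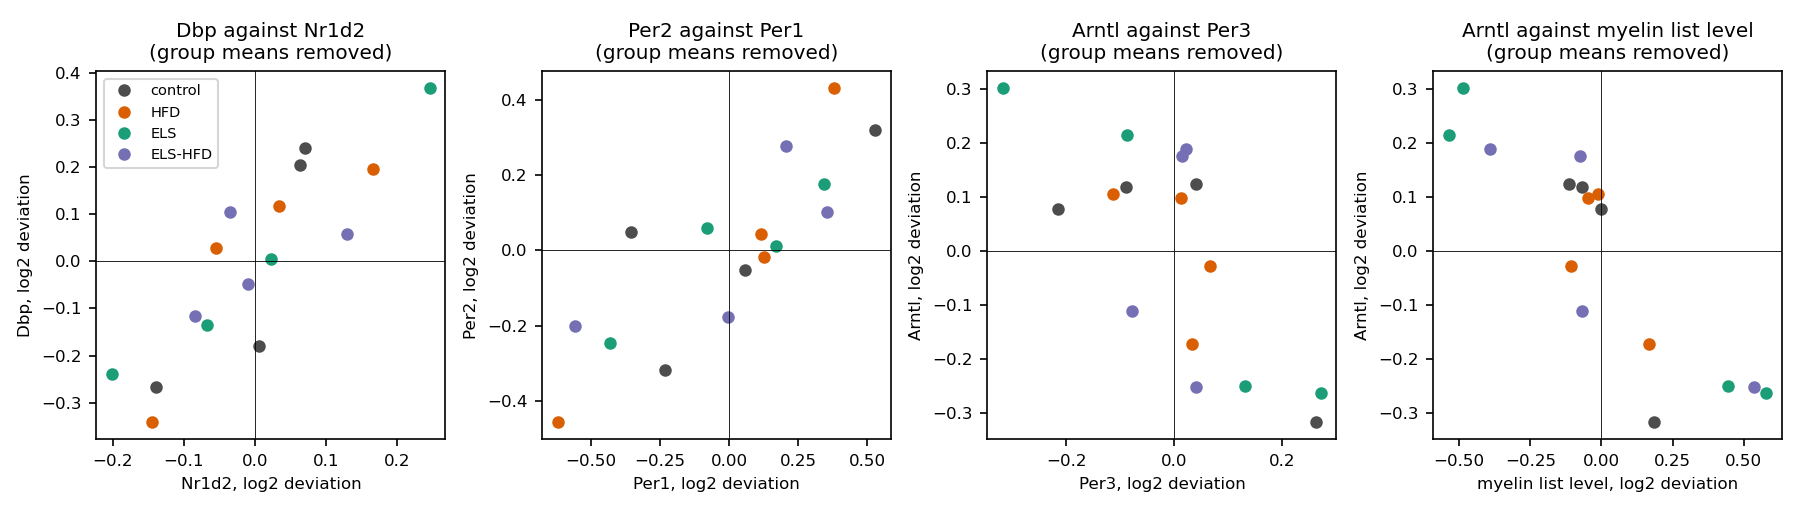
Log2 deviations from the group mean of 16 libraries, coloured by group, for Dbp against Nr1d2, Per2 against Per1, Arntl against Per3 and Arntl against the level of the myelin and oligodendrocyte list. The first pair of panels rises, with r of 0.87 and 0.83, and the last pair falls, with r of -0.74 and -0.87.

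Arntl's correlations were wide with genes of every kind: the central 95% of its r with all 14207 other tested genes ran from -0.81 to 0.78, and 26.7% of those genes had an unadjusted permutation p under 0.05. The r of -0.74 with Per3 lies inside that range. The same range was -0.60 to 0.57 for Dbp, with 6.88% of genes under 0.05, -0.64 to 0.59 for Nr1d2, with 7.55%, and -0.51 to 0.53 for Ciart, with 3.72%. For Clock the share was 18.7%, and its r of 0.72 with Per1 and 0.71 with Nr1d1 lies below its own upper bound of 0.77, though above the upper bounds of those partners, 0.70 for Per1 and 0.67 for Nr1d1.

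**Figure D5:**
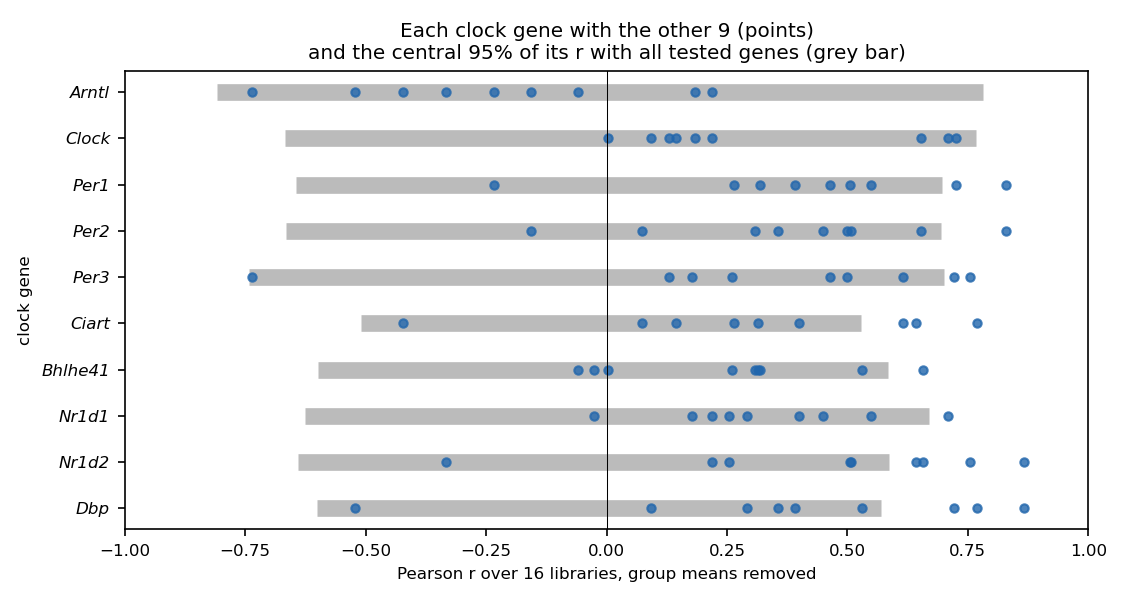
Pearson r over 16 libraries (horizontal axis) of each clock gene (vertical axis) with the other 9 clock genes as points, over a grey bar for the central 95% of its r with all tested genes. Points beyond the bar on the right are seen for Per1, Per2, Per3, Ciart, Bhlhe41, Nr1d1, Nr1d2 and Dbp, and no Arntl point lies beyond its bar.

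Among 10509 genes with a mean of at least 5 CPM and a plain symbol, Nr1d2 was the third most similar to Dbp, and Ciart ranked 20 and Per3 ranked 42. Next came Usp2, from the wider clock list, at rank 48 with r = 0.71, then Cry2 at rank 166 and Cry1 at rank 241, while Bhlhe41 ranked 391, Per1 1124, Per2 1389, Nr1d1 1969, Clock 4000 and Arntl 9920. The 5 genes of highest r to Dbp were Mtmr14, Dhrs7, Nr1d2, Mta2 and Daglb, at 0.82 to 0.88, and the 5 of lowest r were Ppan, Miga2, Sod2, Srrd and Plpp4, at -0.88 to -0.87. Nfil3, a repressor at D-boxes, was at -0.54 with Dbp. The wider list was mixed, with 21 genes positive and 13 negative with Dbp, against 50.5% of all tested genes positive. Npas2 was at 0.53, Tef at 0.15 and the D-box factor Hlf at -0.01. Ranks moved with the libraries that stand apart: without the choroid-poor ones they were 11 for Nr1d2, 12 for Ciart, 168 for Per3 and 124 for Usp2, and without the myelin-rich ones they were 11, 24, 183 and 197. Genes measured in the same 16 libraries share each library's makeup and depth, and a likeness was not tested.

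For Per2, the highest were Mon2, Hivep1, Dis3, Zfp384 and Gtf2i, at 0.91 to 0.94, and the lowest were Skp1, Tmem80, Tm2d2, Ufsp2 and Phb, at -0.91 to -0.87. Of 34 genes of the wider clock list, 30 had a positive r with Per2, with a median of 0.45, against 51.1% of all tested genes and a median of 0.01. With Dbp 21 of the 34 were positive, with a median of 0.11, and with Arntl 19, with a median of 0.17. The range for Per2 was wide: Cry2, the cryptochrome partner of period proteins, ranked 9 with r = 0.88, Klf9, a glucocorticoid-induced factor, ranked 29 with r = 0.84, Per1 ranked 40, Sfpq ranked 58 and Rorb ranked 84, while Zfhx3 ranked 5132, Ppp1cb 7004 and Prkaa1 8235, at r = -0.32. The ranks were 32 for Cry2, 132 for Klf9 and 135 for Per1 without the choroid-poor libraries, and 43, 61 and 145 without the myelin-rich ones. The other clock genes ranked 493 for Clock, 1194 for Nr1d2, 1255 for Per3, 1515 for Nr1d1, 2175 for Dbp, 2496 for Bhlhe41, 4703 for Ciart and 6931 for Arntl.

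For Arntl, the highest were Zfp428, Syt13, Sh3bgrl3, Reep6 and Sars, at 0.91 to 0.92, and the lowest were Clic4, Micall1, Evi5, Cpt2 and Plcd1, at -0.94 to -0.93. No clock gene was among them. Ranked from the top, Nr1d1 was at 4401, Clock at 4640, Bhlhe41 at 6327, Per2 at 6917, Per1 at 7354, Nr1d2 at 7861, Ciart at 8312, Dbp at 8810 and Per3 at 9856. Within the wider clock list, Csnk1e, a casein kinase that phosphorylates period proteins, was highest with Arntl at r = 0.81, and Prkaa2 was lowest at -0.73.

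Correlation with tissue makeup was measured for the 10 genes against 13 marker lists, 130 combinations in all. By Pearson's r none was called after adjustment over the 130, and 15 had an unadjusted permutation p under 0.05. Among comparisons of a clock gene with any single tested gene, 13.0% were under 0.05. The share of all tested genes is given below only for the slope on the myelin list, so the 15 are not read as particular to clock genes. The steepest was Arntl with the 10 myelin and oligodendrocyte markers, at r = -0.87 (adjusted permutation p = 0.0897) and rho = -0.89 (adjusted permutation p = 0.0468), and r = -0.83 without ELS 3 and ELS-HFD 3. As a slope in edgeR, Arntl was the only clock gene called on the myelin list level, at -0.53 ± 0.09 log2 units per log2 unit of the list (adjusted p = 0.00136), while 20.0% of all genes were called on it. With the myelin level as a further term, r of Arntl was -0.46 with Per3 and -0.17 with Dbp, and r was still 0.83 for Nr1d2 with Dbp and 0.83 for Per1 with Per2. Bhlhe41 with the 11 striatal neuron markers gave r = 0.69 (adjusted permutation p = 0.0897) and rho = 0.81 (adjusted permutation p = 0.0468), and r = 0.70 without control 4 and ELS-HFD 4. Summed striatal markers spanned 511 to 1772 CPM in control and 1298 to 2596 CPM in ELS, the groups between which Bhlhe41 had its larger log2 fold, and the part of the markers in that fold was not tested. The 12 glucocorticoid targets, none of which is a clock gene, went with Per1 at r = 0.69 (unadjusted permutation p = 0.00491, adjusted 0.191). With Per2 r was 0.59 (unadjusted permutation p = 0.0155, adjusted 0.335) and with Per3 0.72 (unadjusted permutation p = 0.0219, adjusted 0.393). With Arntl it was -0.69 (unadjusted permutation p = 0.0309, adjusted 0.393), and none of these was called. Without ELS 1 and ELS 3 the r was 0.62, 0.53 and 0.46 for the period genes and -0.53 for Arntl. Cell type lists gave unadjusted p-values between those of Per1 and Per2. They were Clock with the excitatory neuron and amygdala list at r = 0.48 (unadjusted permutation p = 0.00708, adjusted 0.191) and Arntl with endothelium at -0.67 (unadjusted permutation p = 0.00734, adjusted 0.191). Arntl with the choroid plexus list was at r = -0.68 (unadjusted permutation p = 0.0369, adjusted 0.393), with rho = -0.69. Leaving out ELS-HFD 1 and ELS 2, farthest from the median of that list, also gave r = -0.68.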

How the data were processed

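Messenger RNA was measured in 16 libraries from 15 ng of RNA each, with an oligo-dT primer that carries a barcode at reverse transcription, then pooling and linear amplification, per the labels' protocols. Per the submitters' processing notes, the tools included STAR, HTSeq, Picard, cutadapt and DESeq2 on build Rnor_6.0, with no version or role. The authors deposited raw counts per gene, per the file headers, and a normalized signal equal to each count divided by 1 factor per library. The deposited table also gives the authors' log2 fold changes, p-values and adjusted p-values, which are printed only where that table is named. Strand and molecular identifiers are not given in the sources used here. Counting error was 2.15% to 9.13% at the lowest count of each clock gene. The biological coefficient of variation, from 0.0683 for Clock to 0.241 for Per1, was larger than the counting error for each gene.

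Counts were tested here with edgeR 4.0.16 in R 4.3.3, by the quasi-likelihood F test after TMM scaling and filterByExpr (minimum count 10, minimum total 15), fitting 4 group means to the 16 libraries together and testing 8 contrasts, adjusted by Benjamini-Hochberg over 14208 genes at a threshold of 0.05. Groups and replicate numbers came from the labels. The 10 clock genes, the wider clock list and the marker lists were chosen with earlier results of these data known. All 10 clock genes were named in every contrast. Of the wider list, the 3 genes of smallest p were named per contrast where none was called, except 1 that is not reported here. For likeness to Dbp, Per2 and Arntl, the 5 genes of highest and of lowest r were named. Correlations used Python 3.11.15 and numpy 2.4.6, with 100000 permutations within groups, and 2000 for the comparison with all genes. Alternatives were DESeq2 1.42.0, other size factors, no filter, other terms and leaving out libraries; leaving out libraries for Rora, Zfhx3 and the likeness ranks, the cell type list levels as terms, and rho for marker lists were chosen after seeing the data. The fit and the correlation procedure were tested on simulated data. Promoter sequences came from RefSeq, GRCr8, another build than that of the counts, so no position of one was set against the other.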

Additional observations from a re-analysis of the deposited data

Results flagged for a closer look

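Of 40 sets of 4 libraries, 1 per clock gene and group, 2 had a library far from the other 3, and chance alone flags about 1 set in 20. Arntl stood at 29.68 CPM in control 4, against 39.06 to 40.34 CPM in the other controls. That library was also high for Per1, at 86.1 CPM, the highest of all 16 libraries. Its list levels were -1.19 for striatal neurons, -0.93 for the central amygdala, 0.42 for astrocytes and 0.49 for endothelium, against -0.11 to 0.61 for striatal neurons and -0.14 to 0.71 for the central amygdala in the other controls. Ciart stood at 12.84 CPM in ELS-HFD 1, against 10.99 to 11.29 CPM in the other ELS-HFD libraries. ELS-HFD 1 is 1 of the 3 libraries low in choroid plexus markers. The part of tissue makeup in either value was not tested.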

How the results depend on the processing

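No clock gene and no gene of the wider clock list was called under any alternative run. Of the single-gene log2 folds that were recomputed, 17 in all, none changed sign in 143 values under other settings or in 272 values that each leave out 1 library, and none did among 110 values of the 10 recomputed pair correlations. Each of the 17 was larger in size than its SE with all libraries, and the pairs were among those of larger r. Values that far from 0 seldom change sign, and smaller folds and correlations were not included. The count of all genes called, 0 in most contrasts, moved as follows. With DESeq2 it was 1 in HFD against control, 1 in ELS-HFD against control, 5 in ELS-HFD against ELS and 2 for diet. Without ELS 1, ELS 2 and ELS-HFD 1 it was 23 in ELS against control, 116 in ELS-HFD against ELS and 102 for diet. The ELS group then held only ELS 3 and ELS 4, both myelin-rich, and the cause was not tested. In ELS-HFD against ELS it was 0 when only those groups were fitted or without ELS 3 and ELS 4, and 2 with the myelin level as a term. Leaving out 1 library at a time gave 0 to 1 in ELS-HFD against control (1 without ELS-HFD 3) and 0 to 1 in ELS-HFD against ELS. The count of called clock gene pairs, 2 of 45, was 9 with group means kept, 5 with the striatal level as a term, 3 with the myelin level as a term or without ELS 3 and ELS 4, 0 without ELS 1, ELS 2 and ELS-HFD 1, and 1 to 4 over the fits that leave out 1 library. The lowest count, 1, came without control 4, HFD 1, HFD 3, HFD 4 or ELS 1, and Nr1d2 with Dbp was the pair called in each. The highest, 4, came without control 3 or ELS-HFD 2. With Spearman's rho, 2 gene and marker list combinations were called in place of 0.

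With the replicate number as a block, 6 pairs were called, while 0 clock genes were called. No pairing by number was seen in the correlations between libraries. Same-numbered libraries of different groups had a median correlation of -0.10 over 24 pairs, against -0.005 over 72 pairs of other numbers. Of 16 libraries, 5 correlated best with their own number. Tissue makeup also differed between libraries, so this check cannot show whether the numbers marked a shared litter or batch. The main limits are 4 libraries a group, a lowest Ciart count of 120, and tissue makeup that varied within groups; the width of the interval differs by gene.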
